A study of Mus musculus with 8 samples.

Results

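The 10 genes described here make up a small fibroblast programme: the surface protein gene Thy1, the collagen genes Col1a1, Col1a2, Col3a1 and Col5a1, the matrix glycoprotein genes Fn1, Postn and Fbln2, and the contractile genes Acta2 and Tagln. They were chosen by name, with earlier results of these data known. Every probe set that the array annotation assigns to 1 of them was kept, which gave 20 probe sets of the 34945 that carry a single symbol and 10 genes of 18193. The cells were mouse pre-iPSCs, cells that started reprogramming towards pluripotency and halted before reaching it, grown in standard medium for embryonic stem cells. They were kept for 3 days with siRNA before total RNA was taken. Control arrays (n = 3) are from cells given siRNA to luciferase, 3XHMT arrays (n = 2) from cells given siRNA to Ehmt1, Ehmt2 and Setdb1 at once, and Cbx3 arrays (n = 3) from cells given siRNA to Cbx3. The sources used here do not give the strain, the cell of origin, the number of pre-iPSC lines or the use of feeder cells. The labels speak of biological replicates but do not state whether cultures, transfections or lines were repeated, so each p-value measures the spread between these samples. No array of fibroblasts or of embryonic stem cells was used here, so how far any level lies from a fibroblast's was not measured.

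Fibroblasts build and anchor the connective tissue matrix. They secrete fibrillar collagens and fibronectin, carry Thy1 on their surface, and on activation assemble contractile fibres that contain smooth muscle actin and transgelin. When fibroblasts are reprogrammed by transcription factors, silencing of this mesenchymal programme is among the early events, and loss of Thy1 from the cell surface is a common marker of it. Ehmt1, Ehmt2 and Setdb1 encode enzymes that methylate lysine 9 of histone H3, a mark of silent chromatin, and Cbx3 encodes HP1 gamma, which binds that mark.

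The siRNA targets were checked first. The 3 bright Cbx3 probe sets, which the annotation also assigns to the pseudogene Cbx3-ps5, stood at 37.9% to 43.9% of control in the Cbx3 arrays, with limma adjusted p-values of 0.0465 and 0.0525 at these ends. A dim probe set with Cbx3 as its single symbol stood at 82.9% (adjusted p = 0.988) and a further dim one shared with the pseudogene at 79.0% (adjusted p = 0.967). In the 3XHMT arrays Setdb1 stood at 63.2%, Ehmt2 at 66.8% and Ehmt1 at 79.6% of control, none of which passed the test (limma adjusted p = 0.556 for Setdb1 and 1.00 for the others). The labelled cell state was looked at on 13 genes, of which 9 exceeded the array median on all control arrays, against 60.4% of all genes. Among the 9 were Epcam at 11.2 and Sall4 at 10.7 on the log2 scale, while Nanog was at 5.13. The arrays also differ across the groups: by a control probe set for 18S ribosomal RNA they split into 3 sets, called tiers here. The middle tier holds control 1 and Cbx3 1, the high tier control 2, 3XHMT 1 and Cbx3 2, and the low tier control 3, 3XHMT 2 and Cbx3 3. Arrays of different groups in the same tier deviated together, with correlations across probe sets of 0.510 to 0.739, so values are also given with the tier as a block in the fit, a choice made with the data known.

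All levels below are RMA signals on the log2 scale, where a difference of 1 is a doubling, and the arrays' medians lay between 5.87 and 5.90. Of the 20 probe sets, 5 exceeded the array median on every array, 10 lay below it on every array and 5 fell on both sides. By their means, 7 of the 20 lay above the median of all probe sets. The 5 bright ones belong to 4 genes, with Fn1 represented by both of its probe sets and Fbln2, Acta2 and Col5a1 by 1 each. The signal of a probe set also depends on its own probes, so levels of different genes are not set against each other, and a percentile among all probe sets of an array is given only to show how close a signal is to the dim end. In bulk RNA, fewer cells of a type and less RNA per cell cannot be told apart.

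**Figure D1:**
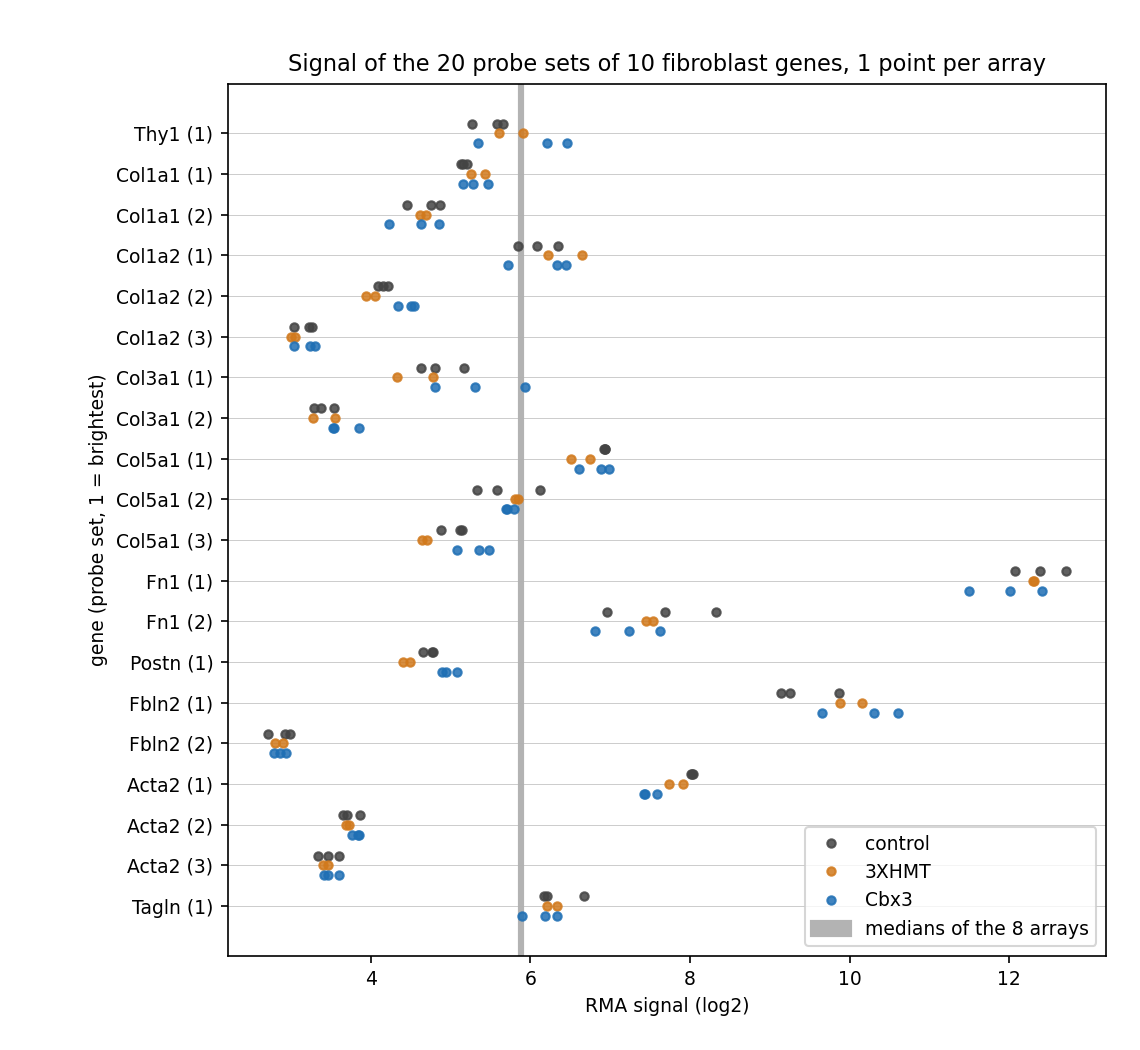
RMA signal (log2, horizontal axis) of all 20 probe sets of the 10 genes, 1 row per probe set and 1 point per array, coloured by group, with the range of the array medians as a grey band. Both Fn1 probe sets and the brightest probe set of Fbln2, Acta2 and Col5a1 lie to the right of the band on all 8 arrays, while Postn and both Col1a1 probe sets lie to its left on all of them.

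Thy1, the surface glycoprotein used to sort fibroblasts from reprogramming cells, gave a signal near the array median. Its probe set read 5.27, 5.58 and 5.65 in control arrays 1 to 3, 5.91 and 5.61 in 3XHMT arrays 1 and 2, and 6.20, 6.46 and 5.35 in Cbx3 arrays 1 to 3. Cbx3 1 and Cbx3 2 were the highest of the 8 arrays, while Cbx3 3 lay within the control range, so these groups overlap. The median percentile of Thy1 was 46.0, with a range over arrays of 40.4 to 57.9.

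The fibrillar collagens gave mostly dim signals. Col1a1 and Col1a2 encode the chains of type I collagen, the main collagen of skin, bone and tendon. The brighter Col1a1 probe set read 5.20, 5.16 and 5.13 in control, 5.25 and 5.43 in 3XHMT, and 5.15, 5.28 and 5.47 in Cbx3 arrays, a total span of 0.334 over the 8 arrays. It stayed below the array median on every array, as did the other Col1a1 probe set. The brightest of 3 Col1a2 probe sets read 5.84, 6.35 and 6.09 in control, 6.65 and 6.22 in 3XHMT, and 5.72, 6.45 and 6.33 in Cbx3 arrays. Its lowest control and lowest Cbx3 arrays are those of the middle tier, and the groups overlap. Col3a1 encodes type III collagen, which is laid down with type I in soft tissue and early in wound repair. Its brighter probe set read 4.63, 5.16 and 4.80 in control, 4.77 and 4.33 in 3XHMT, and 5.30, 5.93 and 4.80 in Cbx3 arrays. Cbx3 2 was the only array on which it exceeded the array median. Col5a1 encodes a chain of type V collagen, which regulates the diameter of type I fibrils. Its brightest probe set was the steadiest in control arrays, at 6.93, 6.94 and 6.93, against 6.51 and 6.75 in 3XHMT and 6.99, 6.89 and 6.60 in Cbx3 arrays. Both 3XHMT arrays lay below all control arrays, and the Cbx3 arrays lay on both sides of them.

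Of the matrix glycoproteins, Fn1 encodes fibronectin, which links collagen to integrins and is also made by many epithelial and early embryonic cells. Its brighter probe set read 12.71, 12.39 and 12.07 in control, 12.30 and 12.32 in 3XHMT, and 12.41, 12.01 and 11.50 in Cbx3 arrays, at a median percentile of 98.5. The other Fn1 probe set, at a median percentile of 68.8, read 8.32, 7.68 and 6.96 in control, 7.45 and 7.53 in 3XHMT, and 7.63, 7.23 and 6.81 in Cbx3 arrays. At both probe sets the control and the Cbx3 arrays ran in the same order, with the middle tier highest and the low tier lowest. Fbln2 encodes fibulin 2, which binds fibronectin and elastic fibre proteins. It read 9.86, 9.25 and 9.14 in control, 9.88 and 10.16 in 3XHMT, and 10.60, 9.65 and 10.31 in Cbx3 arrays, at a median percentile of 89.2. The 3XHMT arrays lay above all control arrays, by 0.02 at the closest, and Cbx3 2 lay below control 1. Postn encodes periostin, a protein of collagen-rich and healing tissue, and gave a dim signal of 4.78, 4.65 and 4.76 in control, 4.40 and 4.49 in 3XHMT, and 4.94, 4.90 and 5.08 in Cbx3 arrays. Its 3 groups did not overlap, with 3XHMT lowest and Cbx3 highest. Of all probe sets, 15.4% did not overlap in 3XHMT against control, 11.9% in Cbx3 against control and 23.4% in 3XHMT against Cbx3. The share without overlap among all 3 groups was not computed.

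Of the contractile genes, Acta2 encodes the smooth muscle actin of myofibroblasts and Tagln encodes transgelin, an actin-binding protein. The bright Acta2 probe set read 8.01, 8.04 and 8.02 in control, 7.74 and 7.91 in 3XHMT, and 7.59, 7.42 and 7.43 in Cbx3 arrays. The 3 groups did not overlap, with control highest and Cbx3 lowest, beside the pairwise shares of all probe sets given for Postn. Its other 2 probe sets lay between 3.33 and 3.86 on all arrays. Tagln read 6.17, 6.67 and 6.20 in control, 6.21 and 6.33 in 3XHMT, and 6.19, 6.33 and 5.89 in Cbx3 arrays, with overlap between all groups.

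The comparison of 3XHMT with control asks whether these fibroblast genes differ once the H3K9 methyltransferases are targeted. None of the 20 probe sets passed the test in limma (0 called), beside 0.0555% of all 45037 probe sets, and their adjusted p-values were all 1.00. At an unadjusted p under 0.05 there were 2, both lower, or 10% of the members against 4.19% of all probe sets. These were Postn, at 4.73 ± 0.07 (SD, n = 3) in control and 4.44 ± 0.06 (SD, n = 2) in 3XHMT, and the dimmest Col5a1 probe set. The arrays of the groups did not overlap at 7 probe sets, 2 higher and 5 lower, or 35% of members against 15.4% of all probe sets. The members' median difference was -0.06, against 0.00 over all probe sets, with 6 of 20 above 0.

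The most positive difference was that of Fbln2, from 9.42 ± 0.39 (SD, n = 3) to 10.02 ± 0.19 (SD, n = 2), a log2 difference of 0.60 ± 0.31 (SE; 95% interval -0.11 to 1.31). Within tiers it was 0.63 in the high and 1.01 in the low tier, and with the tier as a block its limma adjusted p was 0.0799, with values from 0.0799 to 1.00 over the alternatives run. Acta2 gave -0.20 (95% interval -0.46 to 0.06), with -0.30 in the high and -0.12 in the low tier. Thy1 gave 0.26 (95% interval -0.45 to 0.96), with 0.32 in the high and -0.04 in the low tier. For Fn1 the difference was -0.09 (95% interval -0.72 to 0.54), and it turned to 0.10 with the tier as a block. Col1a1 gave 0.18 (95% interval -0.12 to 0.47) and Col1a2 0.34 (95% interval -0.24 to 0.92). No member passed with the tier as a block either, beside 0.699% of all probe sets. With intervals this wide for Thy1 and Fn1, a lack of response was not shown.

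The comparison of Cbx3 with control asks the same of the protein that binds the mark. Without a block, 0 of the 20 probe sets passed in limma, beside 0.0777% of all probe sets, and their lowest adjusted p was 0.140. At an unadjusted p under 0.05 there were 4, 3 higher and 1 lower, or 20% of members against 7.23% of all probe sets. The groups did not overlap at 3 probe sets, or 15% of members against 11.9%, with Postn and a dim Col1a2 probe set of mean 4.15 in control arrays higher, and Acta2 lower. The members' median difference was 0.07, with 13 of 20 above 0.

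The replicate numbers pair control with Cbx3 arrays, which fall in the same tiers number by number. With the tier as a block, 2 of the 20 passed, Acta2 lower and Fbln2 higher, beside 3.43% of all probe sets. In a fit of these 6 arrays alone with the replicate number as a block, the same 2 passed, beside 3.94%. Without the 3 arrays of the low tier, in a fit with no block, 0 members passed, beside 0% of all probe sets.

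Acta2 went from 8.03 ± 0.01 (SD, n = 3) to 7.48 ± 0.09 (SD, n = 3), 68.6% of control, a log2 difference of -0.54 ± 0.10 (SE; 95% interval -0.78 to -0.31). The difference was -0.43 in the middle, -0.62 in the high and -0.59 in the low tier, so it was lower in 3 of 3 pairs. Its limma adjusted p was 0.140 without a block, 0.0241 with the tier as a block and 0.0249 with the replicate block on 6 arrays, and it ranged from 0.0241 to 0.468 over all alternatives. Without the low tier the difference was -0.52, with an adjusted p of 0.454. The probe set is of a type that can match several transcripts, so other actin genes were looked at after these values were seen. In the same comparison and at the brightest probe set of each, Actc1 gave -0.23 (limma adjusted p = 0.638), Actg2 0.30, Acta1 0.03, Actb 0.05 and Actg1 0.05. None passed without a block, where Acta2 did not pass either. With the tier as a block none passed, at a limma adjusted p of 0.293 for Actc1 and 0.189 for Actg2. Actc1, below the array median on all arrays, read 5.41, 5.38 and 5.40 in control, 5.25 and 5.15 in 3XHMT, and 5.23, 5.19 and 5.08 in Cbx3 arrays.

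Fbln2 went from 9.42 ± 0.39 (SD, n = 3) to 10.19 ± 0.49 (SD, n = 3), a 1.70-fold level and a log2 difference of 0.77 ± 0.27 (SE; 95% interval 0.14 to 1.40). It was 0.74 in the middle, 0.40 in the high and 1.16 in the low tier, higher in 3 of 3 pairs although the groups overlap. Control 3, the control array of the low tier, stands apart in RNA quality probes, with an actin signal 0.599 higher at the 3′ than at the 5′ end on the log2 scale, against 0.167 to 0.277 on the other arrays. For Gapdh it was 0.234, against -0.158 to 0.0582. The part of this in the result was not tested, and without control 3 the Fbln2 difference was 0.63 in Cbx3 and 0.46 in 3XHMT arrays. Its limma adjusted p was 0.539 without a block, 0.0224 with the tier as a block and 0.0269 with the replicate block on 6 arrays, and it ranged from 0.0224 to 0.958 over all alternatives. Without the low tier the difference was 0.57, with an adjusted p of 0.880. The other Fbln2 probe set lay between 2.71 and 2.99 on all arrays and showed no such difference.

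**Figure D2:**
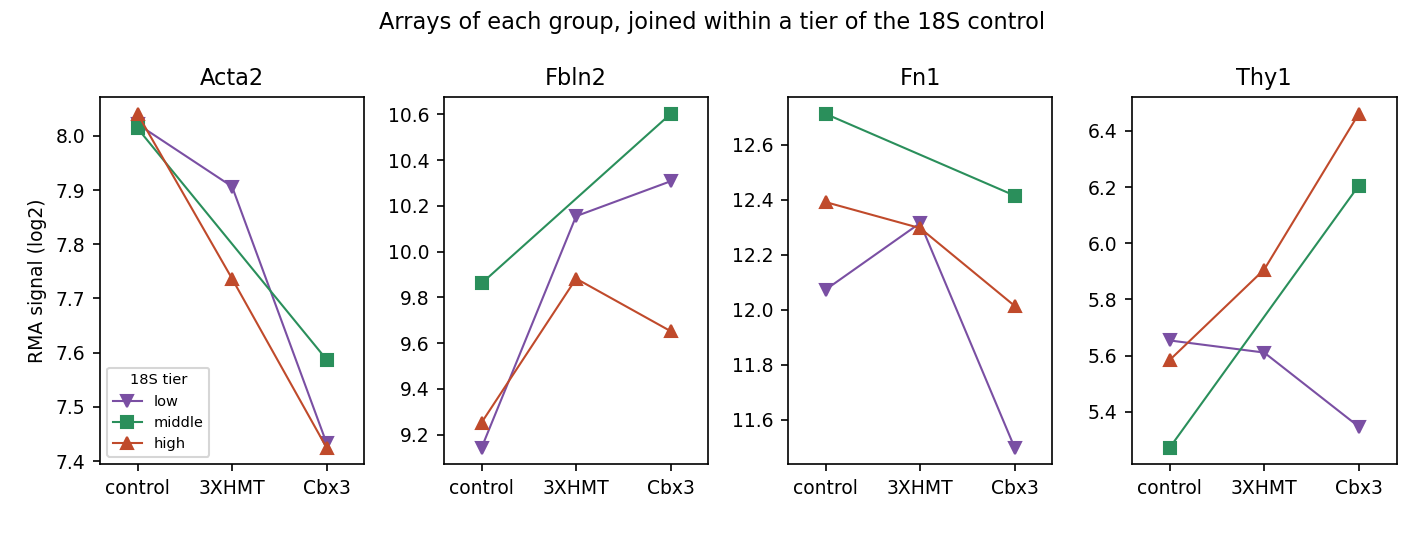
RMA signal (log2, vertical axis, a separate scale in each panel) of the brightest probe set of Acta2, Fbln2, Fn1 and Thy1, 1 point per array, with lines joining arrays of the same 18S tier from control to 3XHMT to Cbx3. Along all 3 lines Acta2 is lower and Fbln2 higher in Cbx3 than in control, while Thy1 is lower in Cbx3 (5.35 against 5.65) along the low tier and higher along the others.

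The other members did not pass in either fit. Thy1, whose SD was 0.20 in control and 0.58 in Cbx3 arrays (n = 3 each), gave a difference of 0.50 ± 0.27 (SE; 95% interval -0.13 to 1.13) with a limma adjusted p of 0.843. The pairs did not move alike, at 0.93 in the middle, 0.88 in the high and -0.31 in the low tier. Fn1 gave -0.42 ± 0.25 (SE; 95% interval -0.98 to 0.15), or 74.9% of control, with -0.30, -0.38 and -0.57 in the middle, high and low tiers and a limma adjusted p of 0.125 with the tier as a block. Its other probe set gave -0.43. Col3a1 gave 0.48 (95% interval -0.18 to 1.14), with 0.67 in the middle, 0.76 in the high and 0.00 in the low tier. Postn gave 0.24 (95% interval 0.01 to 0.47), Col1a1 0.14, Col1a2 0.07, Col5a1 -0.11 and Tagln -0.21. The lowest limma adjusted p of these 5 was that of Postn, at 0.664 without and 0.272 with the tier as a block.

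**Figure D3:**
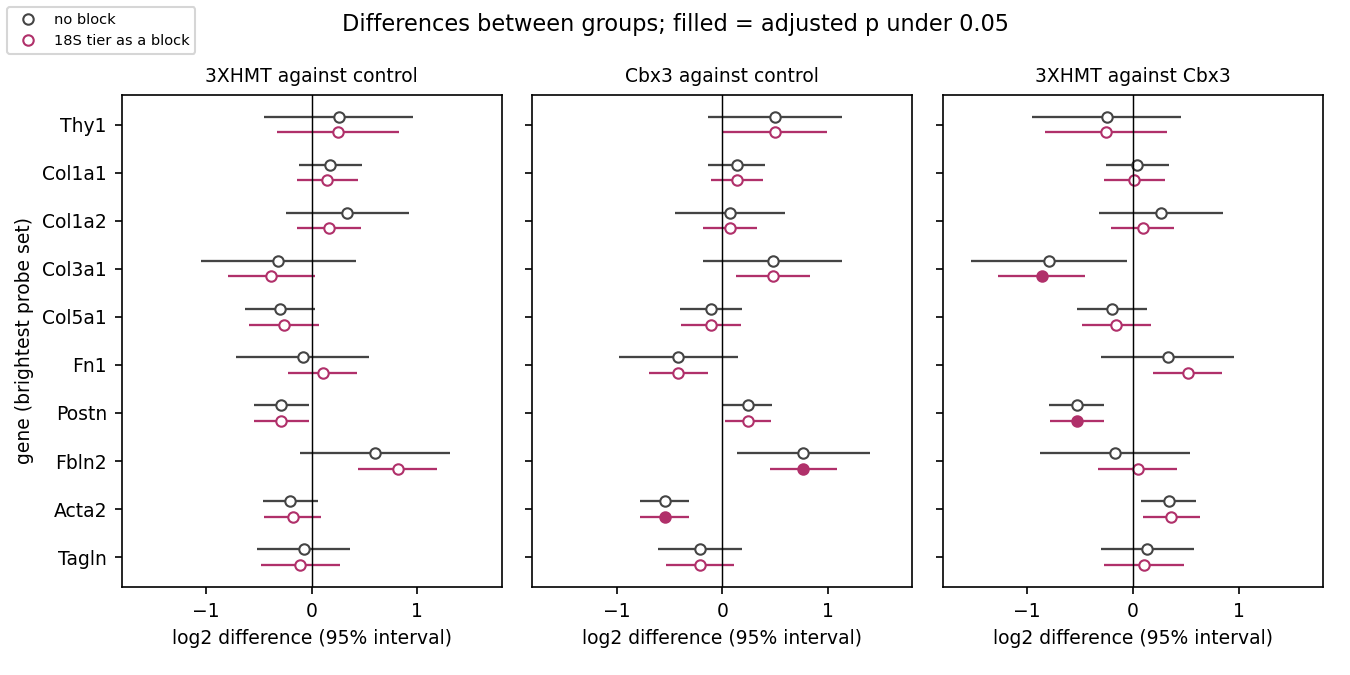
Log2 differences (horizontal axis) with 95% intervals at the brightest probe set of each of the 10 genes in the 3 comparisons, without a block (grey) and with the 18S tier as a block (red), filled where the limma adjusted p is under 0.05. Filled points are Acta2 at -0.54 and Fbln2 at 0.77 for Cbx3 against control, and Col3a1 at -0.86 and Postn at -0.53 for 3XHMT against Cbx3, all with the block.

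The upstream sequence of Acta2 is shown because the gene is a textbook target of serum response factor, which binds the CArG box, and because it had the lowest adjusted p of the members in Cbx3 against control without a block. The line holds the 250 bases before a RefSeq transcript start on the minus strand, chr19:34255374-34255623 (GRCm38.p6). The RefSeq span of the gene, chr19:34240336-34255585, reaches past that start, so the gene has a further start inside this window. Capitals mark CArG-like matches, in which exactly 1 of the inner A or T bases of a CArG box is replaced by G or C. Strict CArG boxes are counted apart and are not in the CArG-like shares below. The motif was searched on both strands.
Acta2: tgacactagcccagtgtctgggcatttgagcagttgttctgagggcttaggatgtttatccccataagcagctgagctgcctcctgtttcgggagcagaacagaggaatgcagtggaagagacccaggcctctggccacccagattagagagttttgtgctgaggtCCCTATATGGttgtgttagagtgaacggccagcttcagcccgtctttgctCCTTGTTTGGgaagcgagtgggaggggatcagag
Acta2 holds 2 such matches, CCCTATATGG and CCTTGTTTGG, whose first letters lie 84 and 34 bases before the start. Of 32851 upstream windows of this length, 7.24% hold at least 1 CArG-like match and 0.548% hold 2 or more. The strict CArG box, with only A or T inside, is not in this window and is in 1.47% of all. Upstream windows were at hand for 6 of the 10 genes, and Fbln2 and Col1a2 hold 1 CArG-like match each, while Col3a1, Col5a1 and Postn hold 0. The matches describe letters in a window, and no binding was measured.

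Setting 3XHMT directly against Cbx3 tests whether the knockdowns differ. Without a block 0 of the 20 probe sets passed in limma, beside 0.528% of all probe sets. At an unadjusted p under 0.05 there were 5, 1 higher and 4 lower, or 25% of members against 8.74%. The groups did not overlap at 7 probe sets, 2 higher and 5 lower in 3XHMT, or 35% of members against 23.4%. With the tier as a block 2 passed, Postn and Col3a1, both lower in 3XHMT, beside 4.66% of all probe sets.

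Postn stood at 4.44 ± 0.06 (SD, n = 2) in 3XHMT and 4.97 ± 0.10 (SD, n = 3) in Cbx3 arrays, a difference of -0.53 ± 0.11 (SE; 95% interval -0.79 to -0.27). Its limma adjusted p was 0.121 without and 0.0339 with the tier as a block, within 0.0339 to 0.437 over all alternatives. Col3a1 stood at 4.55 ± 0.32 (SD, n = 2) and 5.34 ± 0.56 (SD, n = 3), a difference of -0.79 ± 0.32 (SE), which was -1.15 in the high and -0.47 in the low tier. Its limma adjusted p was 0.518 without and 0.0316 with the block, within 0.0316 to 0.982. The dimmer Col3a1 probe set did not differ in the low tier, at 0.00, and gave -0.57 in the high tier. Both genes gave dim signals, at median percentiles of 30.9 for Postn and 30.6 for Col3a1. Without the low tier, in a fit with no block, 0 members passed, beside 0.0511% of all probe sets. Acta2 was 0.34 higher in 3XHMT (95% interval 0.08 to 0.60) with a limma adjusted p of 0.365, and 0.143 with the block, so a difference between the knockdowns in Acta2 did not pass.

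The wider fibroblast programme was followed in 106 further genes in 7 lists, each at its brightest probe set. On all control arrays 12 of 16 genes of collagen processing, 13 of 17 contractile genes and 12 of 15 genes of TGF-beta ligands, receptors and targets exceeded the array median, against 60.4% of all genes. The counts were 10 of 16 for surface and matrix receptors, 9 of 21 for matrix glycoproteins and proteoglycans, 4 of 12 for other collagens, 4 of 9 for matrix degradation and 5 of 10 for the members. In control arrays the intermediate filament gene Vim averaged 13.4, the hyaluronan receptor gene Cd44 12.6 and the collagen chaperone gene Serpinh1 10.9. The fibroblast receptor genes Pdgfra and Pdgfrb were at 5.3, and the activated fibroblast protease gene Fap at 3.6.

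Against control, 0 of the 106 genes passed in limma in either comparison, beside 0.0555% of all probe sets for 3XHMT and 0.0777% for Cbx3. At an unadjusted p under 0.05 there were 9 in 3XHMT, or 8.49% against 4.19% of all probe sets, and 11 in Cbx3, or 10.4% against 7.23%. The shares of all probe sets, here and below, include dim and unnamed ones, while the lists hold brightest probe sets. In a fit of 1 probe set a gene, 958 of 18193 genes in 3XHMT and 1739 in Cbx3 had an unadjusted p under 0.05. The median differences of the 106 genes were -0.06 in 3XHMT and 0.04 in Cbx3, with 44 and 59 genes above 0. With the tier as a block, 5 passed in Cbx3, or 4.72% of the lists beside 3.43% of all probe sets, a share near the background. Without a block the limma adjusted p-values of these 5 ran from 0.105 (Nt5e) to 0.685 (Tgfb2). Plod2, a lysyl hydroxylase of collagen, was higher by 0.89 and read 9.36, 9.10 and 9.52 in control and 9.97, 9.79 and 10.87 in Cbx3 arrays. Loxl1, a crosslinking enzyme of elastic fibres, was higher by 1.21. Tgfb2, a ligand that promotes matrix production, was lower by 1.05, Nt5e, the ectonucleotidase CD73, by 1.32 and the collagen receptor gene Ddr2 by 0.55. In 3XHMT 1 of the 106 passed with the block, or 0.943% beside 0.699% of all probe sets, a share near the background. This was Tgfb2, at -0.97, which read 7.82, 7.55 and 6.38 in control, 6.49 and 5.64 in 3XHMT and 6.50, 6.63 and 5.48 in Cbx3 arrays. Control 3 lay below 1 or more arrays of each knockdown group, while within each tier the knockdown arrays lay below control. Without a block the lowest unadjusted p-values of the 106 in 3XHMT against control were those of Dcn, Timp3 and Mmp2. Dcn gave 1.02 (limma adjusted p = 0.339), Timp3 -1.21 (0.499) and Mmp2 0.77 (0.866), and none passed with the block. Their arrays did not overlap those of control, beside 15.4% of all probe sets.

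Of the contractile list, 13 of 17 genes lay lower in 3XHMT than in control, with a median of -0.10, and 7 of 17 in Cbx3, with a median of 0.04. In either comparison 0 passed with or without the block, beside at most 3.43% of all probe sets. In Cbx3 against control the tropomyosin gene Tpm1 gave -0.33, the lowest of the list, Vim -0.17, Cald1 -0.12, Tpm4 -0.08 and Srf 0.04. The other 10 of the 17 lay higher, Srf among them, with Actg2 at 0.30 and Vcl at 0.19. Another tropomyosin gene, Tpm2, averaged 9.94 in Cbx3 and 9.58 in control arrays. Between the knockdowns 1 of the 106 genes passed without a block, beside 0.528% of all probe sets. This was Nt5e, 1.75 higher in 3XHMT (limma adjusted p = 0.0320), with 9.42 and 9.29 in 3XHMT against 7.89, 7.76 and 7.17 in Cbx3 arrays. With the block 13 of the 106 passed, 6 higher and 7 lower, or 12.3% beside 4.66% of all probe sets.

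**Figure D4:**
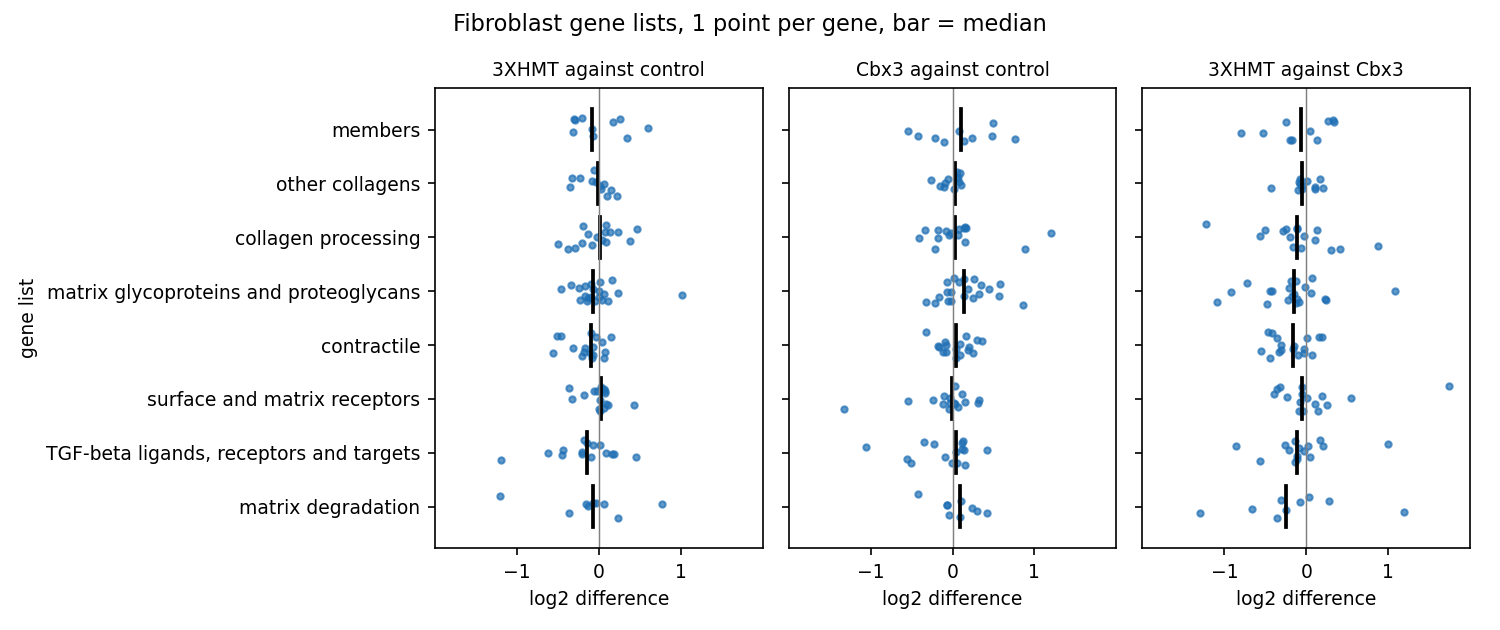
Log2 differences (horizontal axis) at the brightest probe set of each gene, without a block, for the 10 genes and the 7 wider lists, 1 point per gene with the list median as a bar, in the 3 comparisons. The list medians run from -0.24 (matrix degradation, 3XHMT against Cbx3) to 0.14 (matrix glycoproteins and proteoglycans, Cbx3 against control), and Nt5e lies at 1.75 for 3XHMT against Cbx3.

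Markers of other cells that a culture could hold were measured beside these results. Of 6 smooth muscle and muscle markers 2 exceeded the array median on all control arrays, namely Des at 7.24 and Smtn at 6.08 on average, while Myh11 was at 4.22 and Myocd at 4.76. Of these markers 0 of 6 passed in any comparison with or without the block, beside at most 4.66% of all probe sets. The count above the array median was 2 of 6 for endothelial markers, with Tek at 7.31, Kdr at 7.17 and Cdh5 at 4.59. It was 2 of 6 for macrophage and blood markers, with Cd68 at 7.55, Csf1r at 6.61 and Ptprc at 3.39, and 0 of 5 for adipocyte and chondrocyte markers, with Adipoq at 3.32. With the block the endothelial markers Tek and Vwf passed in Cbx3 against control, 1 in each direction, beside 3.43% of all probe sets. Of the 13 genes of the labelled cell state, 1 passed without a block in each comparison with control. The shares of all probe sets were 0.0555% for 3XHMT and 0.0777% for Cbx3. Dppa4 rose by 2.56 in 3XHMT (limma adjusted p = 0.0267) and Nanog by 3.31 in Cbx3 arrays (adjusted p = 0.0428). With the block 3 rose in 3XHMT, Zfp42, Nanog and Dppa4, beside 0.699% of all probe sets. In Cbx3 arrays 3 rose with the block beside 3.43%, Nanog and the epithelial genes Epcam, by 0.98 (adjusted p = 0.00972), and Cdh1, by 0.87 (adjusted p = 0.0471), while Dppa4 and Zfp42 stood at -0.32 and -0.25 and did not pass. Whether any of these bears on the members' differences was not tested.

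For 3 members the genes with the most similar profile over the 8 arrays were looked up, by the root mean square difference of centred log2 values. Acta2 was closest to Tlcd5 (0.0784), Nuak2 (0.0813) and Ccdc173 (0.0895), against 0.310 for the median gene and a spread of 0.245 of Acta2 about its own mean. Thy1 was closest to Notch2 (0.156), Casp4 (0.182) and Igtp (0.185), against 0.419 for the median gene and 0.384 about its own mean. Col1a1 was closest to Ppp1r42 (0.0341), Tinf2 (0.0370) and Timm17a (0.0388), against 0.214 and 0.119. Ppp1r42, at 3.00 to 3.40 over the arrays, and Casp4, at 3.65 to 4.70, gave dim signals. These likenesses rest on 8 arrays that share tiers, and they describe the profiles alone.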

How the data were processed

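The deposited table holds log2 signals for 8 arrays and 45101 probe sets. The authors computed these deposited values with RMA, as the submitters' processing notes record, and its version is not given in the sources used here. RMA quantile-normalizes arrays, so a shift shared by most genes is removed, and signals near background compress differences. The number of arrays limits the precision. The 64 control probe sets were left out, and 45037 were tested. The platform annotation gave 1 symbol to 34945 probe sets, several to 932 and none to 9160. Probe sets of the members were all kept, and any other gene was read at its brightest probe set by mean over the arrays.

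A linear model with 3 group means was run in limma 3.58.1 (R 4.3.3) on the 8 arrays together, using lmFit and eBayes with two-sided tests and Benjamini-Hochberg adjustment over all 45037 probe sets and a threshold of 0.05. All adjusted p-values come from limma. The median residual SD was 0.181. The fit was tested on simulated data. Of 200 simulated log2 changes of 1, it recovered 46.5% for 3XHMT against control and 69.5% for Cbx3 against control. The simulated noise was independent between arrays and held no tiers, unlike these data. The replicate numbers of the labels pair control and Cbx3 arrays, since deviations from the group means of same-numbered arrays correlated by 0.510, 0.616 and 0.739. They do not pair 3XHMT with control arrays (0.048 and -0.657). With 2 arrays in 3XHMT the deviations of each mirror those of the other. The -0.657 thus restates the 0.657 of 3XHMT 1 with control 2, and the 3XHMT correlations within tiers are not independent either. Tiers were set by the largest gaps in the signal of the middle 18S control probe set, at 9.98 to 10.2 in the low, 11.2 to 11.5 in the middle and 12.6 to 12.8 in the high tier.

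The members and lists were chosen with earlier results of these data known. Named were the members, the siRNA targets and the 3 closest profiles to Thy1, Col1a1 and Acta2. Up to 4 genes of each list with the lowest unadjusted p in each comparison could also be named. Only some of these were, and none of the other collagens. Vim, Cd44, Serpinh1, Pdgfra, Pdgfrb, Fap, Tpm2, Tpm4, Cald1, Srf, Vcl, Dcn, Timp3, Mmp2, Myh11, Myocd, Des, Smtn, Kdr, Cdh5, Cd68, Csf1r, Ptprc, Adipoq, Sall4, Epcam and the actins were named from the lists, or for the actins as relatives of Acta2, after their values were seen. Alternatives were the tier or the replicate number as a block, only the groups compared, no dim probe sets, cyclic loess, 1 probe set a gene, a variance trend and leaving out each array. A replicate block on control and Cbx3 arrays alone and a fit without the low tier were added after seeing the data.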

Additional observations from a re-analysis of the deposited data

How the results depend on the processing

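Of 478 alternative values of single members at their brightest probe set, 458 kept direction and side of the threshold, 6 passed only under a block and 14 changed sign, 9 of them when 1 array was left out. None of the 20 members passed when any 1 array was left out, with 0 called each time. Acta2 then kept -0.60 to -0.52 and Fbln2 0.56 to 1.04 in Cbx3 against control. These fits held no block, and without a block 0 members passed on all 8 arrays either. The calls made with a block were not refitted with 1 array left out. With the tier as a block, 2 members passed in Cbx3 against control and 2 in 3XHMT against Cbx3, and all probe sets called went from 25 to 315 (3XHMT against control), 35 to 1547 (Cbx3 against control) and 238 to 2099 (3XHMT against Cbx3). In the same order the replicate block on 8 arrays gave 67, 153 and 433 and no called member, and the replicate block on control and Cbx3 arrays alone, which follows the pairing, gave 1776 and 2 members. The block changed no other call of a member. Fits of only the groups compared gave 3, 14 and 80, 1 probe set a gene gave 42 and 81 against control, the variance trend gave 42 and no dim probe sets 11 for 3XHMT against control. Without the low tier, which leaves 5 arrays, 0 passed for Cbx3 against control and 23 for 3XHMT against Cbx3. Leaving out 1 array gave 1 to 23, 0 to 14 and 6 to 186. Signs turned for differences near 0. With the tier as a block Fn1 gave 0.10 in 3XHMT against control and Fbln2 0.045 in 3XHMT against Cbx3. Without the low tier Col1a2 gave -0.012 and Col5a1 0.0056 in Cbx3 against control, and Tagln -0.0497 in 3XHMT against Cbx3. With 1 array left out, values ran from -0.25 to 0.0738 for Fn1 and -0.16 to 0.0826 for Tagln in 3XHMT against control, -0.0657 to 0.30 for Col1a2 and -0.19 to 0.0057 for Col5a1 in Cbx3 against control, and -0.0466 to 0.13 for Col1a1 and -0.44 to 0.0385 for Fbln2 in 3XHMT against Cbx3. Beyond fewer arrays and fewer or more tests, the cause was not tested. Signal near background limits what can be seen of Postn, Col1a1 and Col3a1.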

Other observations

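Tek, which encodes the endothelial angiopoietin receptor, was 1.39 lower in Cbx3 than in control arrays on the log2 scale with a limma adjusted p of 0.433 without a block and 0.000973 with the tier as a block. It read 7.98, 6.45 and 7.50 in control, 7.26 and 7.83 in 3XHMT, and 6.54, 5.27 and 5.97 in Cbx3 arrays. Within each tier the Cbx3 array lay below the control array. Vwf, which encodes von Willebrand factor, was 0.51 higher in Cbx3 arrays, with adjusted p-values of 0.376 and 0.0270 in the same fits.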
